A study of Homo sapiens with 6 samples.

Results

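The genes described here are 49 human genes of the thioredoxin system, the glutathione system and the NRF2 antioxidant pathway, named in a fixed list and followed in Hep-3B cells in which the oxidoreductase nucleoredoxin (NXN) was knocked down. Of the 49, 48 were found by symbol among the 23406 features of the deposited tables and 47 had enough counts to be tested, out of 14071 features tested in all. TXNIP was not analysed here because its identifier was not matched, and GSTP1, with 5 to 11 counts in each library, did not pass the filter on low counts. The study sequenced RNA from 6 samples of Hep-3B, an epithelial line from a human hepatocellular carcinoma. Both groups were transduced with an shRNA lentivirus and selected in puromycin for a week. The shControl group, labelled WT, received the control shRNA, and the shNXN group, labelled as NXN knockdown, an shRNA. Each group held 3 libraries, collected on days 7, 9 and 11. The labels place these days after transfection in one sentence and after selection in another, and they do not name the shRNA sequence used. The 3 libraries of a group are thus 3 days and not repeats of 1 condition, no label says that they came from separate transductions, and the p-values measure the spread between these libraries.

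Cells hold hydrogen peroxide and oxidized proteins in check with a pair of electron relays that both draw on NADPH. In the first, thioredoxin reductases reduce thioredoxins, which reduce peroxiredoxins and methionine sulfoxide reductases. In the second, glutathione reductase keeps glutathione reduced for glutaredoxins, glutathione peroxidases and glutathione transferases. NRF2, encoded by NFE2L2, is the transcription factor best known for driving the genes of both relays: KEAP1 holds it for degradation, SQSTM1 (p62) can trap KEAP1, small MAF proteins such as MAFG are its DNA-binding partners, and BACH1 competes with it for the same element. NXN is itself a member of the thioredoxin family. The question put to the data was whether these genes changed in the cells with less NXN, and on which days.

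Promoter sequence was read for the genes because the NRF2 element has known letters. The core of the antioxidant response element was searched as TGACNNNGC on both strands of RefSeq promoters (GRCh38.p14), each running from 250 bases before to 50 bases after a gene's start. Such promoters were held for 39 of the 49 genes, in 59 entries, and 12 entries (20.3%) from 11 genes held the letters, against 13.3% of all 35116 promoters in the table. A match is a description of the letters and not a site of binding. Stretches upstream of the start are shown for 5 genes that recur below, with the core in capitals and 20 bases on each side, on the gene's strand. They are TXNRD1 at 2 of its starts (chr12:104215660-104215708 and chr12:104286910-104286958, plus strand), GCLM (chr1:93909436-93909484, minus strand), ME1 (chr6:83431160-83431208, minus strand), GPX2 (chr14:64942839-64942887, minus strand) and KEAP1 (chr19:10502797-10502845, minus strand). Where the capitals begin with GC, the core lies on the opposite strand.
TXNRD1, first start: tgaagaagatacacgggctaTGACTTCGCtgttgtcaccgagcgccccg
TXNRD1, second start: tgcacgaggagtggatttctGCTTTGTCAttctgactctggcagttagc
GCLM: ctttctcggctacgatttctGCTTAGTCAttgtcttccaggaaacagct
ME1: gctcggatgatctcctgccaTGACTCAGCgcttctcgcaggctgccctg
GPX2: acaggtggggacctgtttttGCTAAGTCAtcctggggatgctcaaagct
KEAP1: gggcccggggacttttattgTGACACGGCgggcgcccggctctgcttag

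The libraries held 15349382 to 16332589 estimated counts. Differences were tested with edgeR's quasi-likelihood test on these counts, and a gene was called when its Benjamini-Hochberg adjusted p, over all features tested, was under 0.05. Levels are given as CPM, counts scaled to the library's size after TMM normalization, which compare libraries for 1 gene, or as FPKM, which also divide by transcript length. Of the 11 hepatocyte and hepatoma marker genes, 11 were detected and tested. Their summed levels were 13273 to 24141 CPM in the shControl libraries and 6816 to 15533 CPM in the shNXN libraries. ALB weighed most in the sum, with means of 10058 CPM (shControl) and 3118 CPM (shNXN). The markers went both ways, with log2 fold changes below 0 for ALB, AFP, APOB, APOH, TTR, FGB and GPC3. Those of APOA1, SERPINA1, TF and HNF4A were above 0. Of 4 endothelial markers, 3 were matched to a row and 0 of these passed the filter, with VWF and KDR at 0 counts in all libraries. PECAM1 was not matched, so its level is not known here. Markers of fibroblasts summed to 4.92 to 8.76 CPM across the libraries. Immune markers summed to 173 to 225 CPM with shControl and to 241 to 377 CPM with shNXN, mostly from LYZ and CD68, while CD3E was at 0 counts. The part of these marker differences in the results was not tested. In RNA from whole cultures, fewer cells of a kind and less RNA per cell cannot be told apart.

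NXN mRNA was lower in each shNXN library than in every shControl library. Its levels were 181, 138 and 143 CPM on days 7, 9 and 11 with shControl and 42.7, 47.5 and 39.5 CPM with shNXN. The groups did not overlap, and the log2 fold change was -1.83 ± 0.16 (SE, n = 3 per group, adjusted p = 0.0378), with daily differences of -2.08, -1.53 and -1.86. NXN lies at chr17:799313-979770, minus strand (GENCODE 29, GRCh38). An exact two-sided permutation test of 3 against 3 libraries cannot give less than p = 0.1, the value it gave for NXN. The fall kept its size with any 1 library left out (-1.67 to -1.90), but its adjusted p was 0.0633 to 0.225 without the day 7 or day 11 shControl library or the day 7 or day 9 shNXN library.

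Among the 47 redox genes tested, 1 rose and 2 fell. SQSTM1 rose, and SLC7A11 and BACH1 fell, which is 6.38% of the genes beside 3.39% of all tested features called (0.185% higher, 3.21% lower). With the day of collection as a block, 5 rose (PRDX5, SQSTM1, MAFG, TALDO1 and TKT) and 6 fell (GCLC, SLC7A11, GSTA4, NFE2L2, BACH1 and ME1), 23.4% of the genes beside 23.3% of all features (6.28% higher, 17% lower). DESeq2 without the block called 9, 19.1% beside 23.5% of all features. The groups did not overlap for 12 genes in the higher direction and 9 in the lower, 44.7% beside 40.6% of all features. The median log2 fold change of the 47 was 0.10 beside 0.03 for all features, with 27 genes above 0. The shares of these genes called were thus near those of the transcriptome at large, except in the fit without the block, where 3 genes set the share. Leaving out the day 11 shNXN library raised the calls to 14, 29.8% beside 25.8% of all features in that fit, and leaving out any other single library left 0 or 1 (SLC7A11, without the day 9 shControl library), with 6 to 14 genes at an unadjusted p under 0.05 in edgeR. In these last fits 18.6% to 29.5% of all features had an unadjusted p under 0.05.

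**Figure D1:**
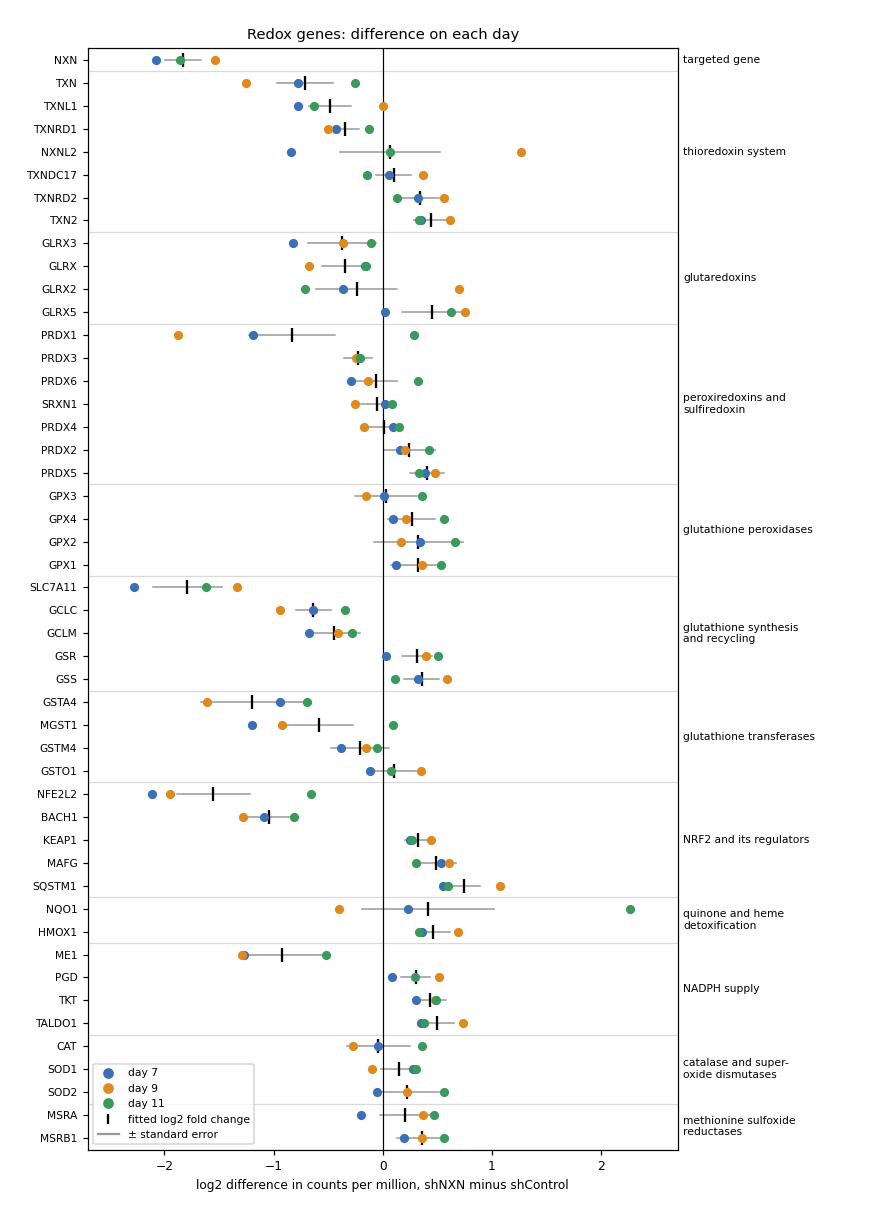
Differences in log2 CPM between the shNXN and the shControl library of the same day, for NXN and the 47 redox genes tested, grouped by role. Coloured points are days 7, 9 and 11, black ticks the fitted log2 fold changes and grey lines 1 standard error on each side. NXN, SLC7A11, NFE2L2 and BACH1 lie below 0 on all days, SQSTM1 above 0 on all days, and PRDX1 changes side on day 11.

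NRF2 and its regulators held both directions. The mRNA of NFE2L2 itself was at 281, 178 and 155 CPM on days 7, 9 and 11 with shControl and at 64.9, 46.1 and 98.5 CPM with shNXN. All shNXN libraries lay below all shControl libraries. The log2 fold change was -1.55 ± 0.33 (SE, n = 3, adjusted p = 0.0532), just outside the threshold, and it was -1.58 ± 0.31 with the day block (adjusted p = 0.0292). The gap narrowed from -2.11 and -1.95 on days 7 and 9 to -0.66 on day 11, and the change with day did not pass after adjustment (unadjusted p = 0.0504). Without the day 11 shNXN library NFE2L2 was called (log2 fold change -1.88, adjusted p = 0.00555).

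SQSTM1, whose product p62 delivers cargo to autophagy and can sequester KEAP1, was at 937, 811 and 868 CPM with shControl and at 1372, 1702 and 1314 CPM with shNXN. The lowest shNXN library was above the highest shControl library. Its log2 fold change was 0.75 ± 0.14 (SE, n = 3, adjusted p = 0.0473), a 1.68-fold rise, and the daily differences were 0.55, 1.07 and 0.60. After correction for transcript GC content it was 0.39 and not called (adjusted p = 0.20). BACH1, the repressor that occupies the NRF2 element, was at 83.7, 65.5 and 74.7 CPM with shControl and at 39.4, 26.9 and 42.4 CPM with shNXN. Every shNXN library was lower, and the log2 fold change was -1.04 ± 0.21 (SE, n = 3, adjusted p = 0.0496). This call was lost after correction for transcript GC content, where the sign turned (0.07, adjusted p = 0.903), and in FPKM (-0.04, adjusted p = 0.908, limma).

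MAFG, the small MAF partner, was at 121, 87.6 and 101 CPM with shControl and at 175, 133 and 125 CPM with shNXN. The groups did not overlap, and edgeR called MAFG with the day block (log2 fold change 0.48 ± 0.11, adjusted p = 0.0385) and not without it (adjusted p = 0.131). With the block and correction for transcript GC content MAFG was at 0.14 and not called by edgeR (adjusted p = 0.489). KEAP1, one of the genes shown above with the core letters, was at 188 to 194 CPM with shControl and at 226 to 260.5 CPM with shNXN. Its log2 fold change of 0.32 ± 0.12 did not pass (adjusted p = 0.116, with the block 0.0666). Corrected for transcript GC content, KEAP1 was at -0.05 in edgeR (adjusted p = 0.907).

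**Figure D2:**
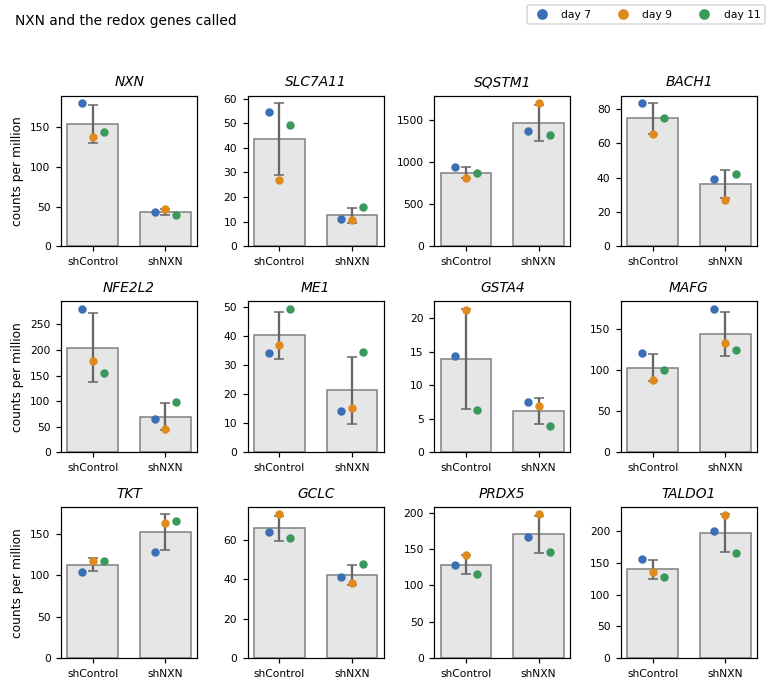
CPM of NXN and the 11 redox genes called without or with the day block, in each library. Bars are means of 3 libraries, error bars 1 SD, and points the libraries of days 7, 9 and 11. For SQSTM1 the shNXN libraries run from 1314 to 1702 and the shControl libraries from 811 to 937, while for GSTA4 and ME1 the groups overlap.

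Of the 6 genes most often read as NRF2 output, edgeR without the block called SLC7A11, which fell, and no other. DESeq2 also called HMOX1, as higher (log2 fold change 0.49, adjusted p = 0.0336). NQO1, the quinone reductase, was nearly silent in both groups, with 2 to 13.6 counts per library and 0.12 to 0.85 CPM. Its groups overlapped and its log2 fold change was 0.42 ± 0.60 (SE, n = 3, adjusted p = 0.642), so a change of NQO1 was not detectable at this depth. HMOX1, which breaks down heme, was at 45.3, 41.0 and 41.7 CPM with shControl and at 58.0, 66.1 and 52.3 CPM with shNXN. It was higher on all days without overlap (log2 fold change 0.46 ± 0.15), but did not pass in edgeR (adjusted p = 0.0993, with the block 0.0604). Corrected for transcript GC content, HMOX1 was at 0.11 in edgeR (adjusted p = 0.767). Its corrected daily differences were -0.03, 0.30 and 0.06.

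TXNRD1, the cytosolic thioredoxin reductase, was at 230, 218 and 208 CPM with shControl and at 171, 154 and 191 CPM with shNXN. All shNXN libraries were below the shControl libraries, and the log2 fold change of -0.35 ± 0.13 did not pass (adjusted p = 0.124). Corrected for transcript GC content, TXNRD1 was at -0.02 in edgeR (adjusted p = 0.955). SRXN1, the sulfiredoxin that repairs overoxidized peroxiredoxins, was at 60.0, 71.9 and 67.2 CPM with shControl and at 60.7, 60.2 and 71.3 CPM with shNXN. These ranges overlapped almost whole, and the log2 fold change was -0.05 ± 0.15 (adjusted p = 0.828). Of the 10 tested genes whose promoter held the core letters, 4 had a log2 fold change above 0 and 6 below 0, with a median of -0.40. Corrected for transcript GC content, GCLM and TXNL1 among them were at 0.82 and 0.75, and GSTA4, ME1 and TXNRD1 at -0.003, 0.01 and -0.02. PGD, GPX2, GSTO1 and KEAP1 were then at 0.03, 0.05, 0.23 and -0.05. The corrected median of the 10 was not computed. None of these 10 was called by edgeR without the block, where 3.39% of all features were called, and 5 had an unadjusted p under 0.05, as had 32.9% of all features. With the block 2 of the 10 were called (GSTA4 and ME1, both lower), beside 23.3% of all features.

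Glutathione synthesis held the gene with the lowest log2 fold change of the 47. SLC7A11, the cystine transporter that feeds glutathione synthesis, was at 54.5, 26.9 and 49.4 CPM with shControl and at 11.2, 10.6 and 16.05 CPM with shNXN. The highest shNXN library was below the lowest shControl library. The log2 fold change was -1.79 ± 0.32 (SE, n = 3, adjusted p = 0.0452), a 3.46-fold fall, with daily differences of -2.28, -1.34 and -1.62. After correction for transcript GC content it was -0.31 and not called (adjusted p = 0.509). GCLC, the catalytic subunit of the rate-limiting ligase, was at 63.9, 72.9 and 60.9 CPM with shControl and at 41.1, 37.9 and 48.01 CPM with shNXN. It did not overlap between groups and was called by edgeR with the day block (log2 fold change -0.64 ± 0.16, adjusted p = 0.0424) and not without it (adjusted p = 0.0649). DESeq2 called it without the block (adjusted p = 0.00328), and so did edgeR without the day 11 shNXN library (adjusted p = 0.0173). With the block and correction for transcript GC content GCLC was at -0.25 and not called by edgeR (adjusted p = 0.278).

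GCLM, the modifier subunit of the same ligase and shown above with the core letters, was at 24.6, 18.1 and 25.0 CPM with shControl and at 15.4, 13.6 and 20.6 CPM with shNXN. The day 11 shNXN library exceeded the day 9 shControl library, and the log2 fold change of -0.45 ± 0.24 did not pass (adjusted p = 0.219). GSS, the glutathione synthetase, had the highest log2 fold change of the 5 genes of this role (0.36 ± 0.16, adjusted p = 0.165). GSR, the glutathione reductase, was at 0.31 ± 0.14 (adjusted p = 0.165). Both had shNXN libraries above all shControl libraries and neither passed the test.

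Of the 7 genes of the thioredoxin system tested, which include the reductases TXNRD1 and TXNRD2, edgeR called 0 without or with the day block. Without it 4 had an unadjusted p under 0.05 (TXN, TXN2, TXNL1 and TXNRD1), as had 32.9% of all features. DESeq2 without the block called TXN (adjusted p = 0.0479), and limma on log2(FPKM + 1) with the block called TXNL1 (adjusted p = 0.0433), both lower. TXN, the cytosolic thioredoxin, was at 89.8, 110.2 and 104 CPM with shControl and at 52.3, 46.3 and 87.3 CPM with shNXN. TXN was lower in every shNXN library, with differences of -0.78, -1.25 and -0.26 on the 3 days, and a log2 fold change of -0.71 ± 0.25 (adjusted p = 0.111, with the block 0.0523). TXN2, the mitochondrial thioredoxin, lay on the other side, at 65.0, 62.9 and 58.2 CPM with shControl and at 82.8, 96.3 and 73.4 CPM with shNXN. Its groups did not overlap either (log2 fold change 0.44 ± 0.15, adjusted p = 0.107, with the block 0.0535). After correction for transcript GC content TXN was at -0.17 (adjusted p = 0.641) and TXN2 at 0.10 (adjusted p = 0.769) in edgeR. The corrected daily differences of both genes changed sign between days.

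TXNL1, a proteasome-associated thioredoxin-like protein, was at 70.0, 49.8 and 74.2 CPM with shControl and at 40.9, 49.8 and 47.95 CPM with shNXN. The day 9 libraries of the groups were level, and the log2 fold change was -0.48 ± 0.19 (adjusted p = 0.137). TXNDC17, the small thioredoxin-like protein TRP14, was at 30.5 to 34.4 CPM with shControl and at 31.2 to 39.3 CPM with shNXN (log2 fold change 0.10 ± 0.16, adjusted p = 0.684). NXNL2, the nucleoredoxin-like relative of NXN, had 8 to 22 counts per library, 0.49 to 1.44 CPM, and overlapping groups. Its daily differences of -0.84, 1.26 and 0.07 point in both directions (log2 fold change 0.07 ± 0.46, adjusted p = 0.925), and a change of NXNL2 was not detectable at these counts. TXNRD2, the mitochondrial reductase, was at 0.34 ± 0.17 on the log2 scale (adjusted p = 0.201).

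**Figure D3:**
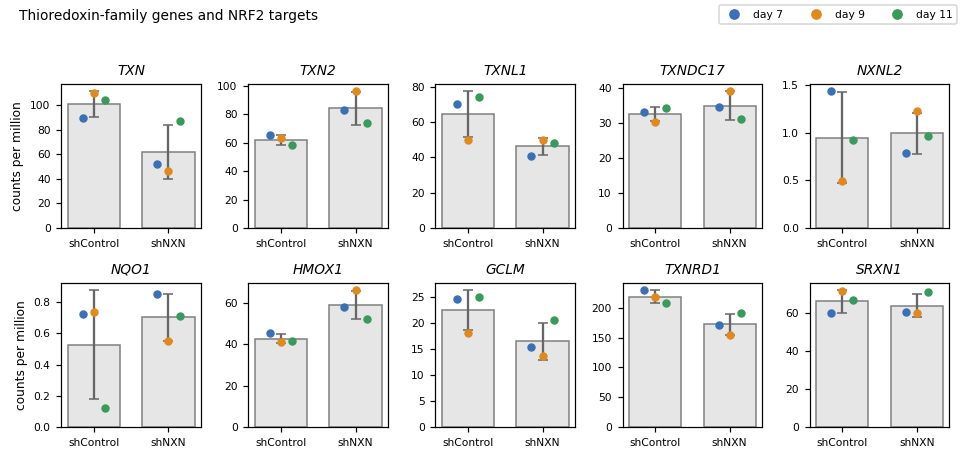
CPM of 5 thioredoxin-family genes (top) and 5 NRF2 target genes (bottom) in each library. Bars are means of 3 libraries, error bars 1 SD, and points the libraries of days 7, 9 and 11. TXN and TXN2 separate the groups in opposite directions, neither past the threshold (adjusted p of 0.111 and 0.107), while NXNL2 and NQO1 stay at or below 1.44 CPM. After correction for transcript GC content the log2 fold changes of TXN and TXN2 were -0.17 and 0.10.

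Glutaredoxins, which use glutathione to reduce protein disulfides or carry iron-sulfur clusters, gave 0 calls of 4 with edgeR without or with the block. Without the block 0 had an unadjusted p under 0.05, and with it 1 had, beside 32.9% and 45.7% of all features. GLRX3 had the lowest log2 fold change (-0.38 ± 0.31) and GLRX5 the highest (0.45 ± 0.27), with adjusted p of 0.412 and 0.279. The median of the 4 was -0.29, and 0.33 once corrected for transcript GC content. GLRX2, named after its values were seen, then had the highest corrected value among the 47 (1.31, adjusted p = 0.125, edgeR). It had 55 to 148 counts per library. Its longest transcript, used for the correction, has 5612 bases, while its FPKM divide by 433 (shControl) and 413 (shNXN).

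Peroxiredoxins, the abundant thiol peroxidases fed by thioredoxin, ran from PRDX1 (-0.84 ± 0.39, adjusted p = 0.183) to PRDX5 (0.40 ± 0.16, adjusted p = 0.131). PRDX5 was at 128, 142 and 116 CPM with shControl and at 167, 197 and 146 CPM with shNXN. The groups did not overlap, and PRDX5 was called with the day block (log2 fold change 0.40 ± 0.10, adjusted p = 0.0434). With the block and correction for transcript GC content PRDX5 was at 0.02 and not called by edgeR (adjusted p = 0.941). PRDX1 was at 438, 656 and 369 CPM with shControl and at 192, 179 and 449 CPM with shNXN. It was lower by 1.19 and 1.87 on the log2 scale on days 7 and 9 in shNXN cells and higher by 0.28 on day 11, and its change with day did not pass (unadjusted p = 0.0967).

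The 4 glutathione peroxidases lay close together, from GPX3 (0.03 ± 0.28) to GPX1 (0.33 ± 0.25). None passed in edgeR without the block (adjusted p of 0.370 to 0.954), where 0 of the 4 had an unadjusted p under 0.05. With the block none passed either, and 2 had an unadjusted p under 0.05, as had 45.7% of all features. GPX4, the peroxidase that reduces lipid hydroperoxides and the usual guard against ferroptosis, was the member with the highest FPKM, 1275 ± 270.0 (SD, n = 3) with shControl and 1708 ± 354 with shNXN. In CPM its log2 fold change was 0.26 ± 0.22 (adjusted p = 0.410). GPX2, a gastrointestinal peroxidase with the core letters shown above, was at 0.32 ± 0.41 (adjusted p = 0.590). Corrected for transcript GC content, GPX1, GPX3 and GPX4 were at -0.07, -0.31 and -0.11, and GPX2 at 0.05. In edgeR the lowest adjusted p of the 4 was then 0.587.

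Glutathione transferases, which couple glutathione to electrophiles, ran from GSTA4 to GSTO1 (0.10 ± 0.21, adjusted p = 0.747). GSTA4, which handles lipid aldehydes, was at 14.4, 21.2 and 6.26 CPM with shControl and at 7.48, 6.93 and 3.87 CPM with shNXN. The day 11 shControl library was below the shNXN libraries of days 7 and 9, but within each day shNXN was lower. GSTA4 was accordingly called with the day block (-1.10 ± 0.24, adjusted p = 0.0352) and not without it (-1.20 ± 0.47, adjusted p = 0.134). With the block and correction for transcript GC content GSTA4 was at 0.07 and not called by edgeR (adjusted p = 0.889).

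In the counts as deposited, the enzymes that supply NADPH split by gene. TALDO1 and TKT, of the non-oxidative pentose phosphate pathway, were higher in every shNXN library, and ME1, the cytosolic malic enzyme, was lower on each day. TALDO1 was at 156, 135 and 128 CPM with shControl and at 199, 224 and 166 CPM with shNXN (log2 fold change 0.49 ± 0.12 with the day block, adjusted p = 0.0439, against 0.0922 without it). TKT was at 104, 118 and 118 CPM with shControl and at 128, 164 and 166 CPM with shNXN (0.42 ± 0.10 with the block, adjusted p = 0.0419, against 0.107). ME1 was at 34.4, 37.1 and 49.6 CPM with shControl and at 14.2, 15.2 and 34.7 CPM with shNXN, so the day 11 shNXN library reached the shControl range. It fell with the block (-1.02 ± 0.21, adjusted p = 0.0302) and was not called without it (adjusted p = 0.140). PGD, of the oxidative branch, was at 0.30 ± 0.13 (adjusted p = 0.162). With the block and correction for transcript GC content, TALDO1, TKT, ME1 and PGD were at 0.15, 0.09, -0.006 and 0.03, and edgeR called 0 of them.

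Of catalase and the superoxide dismutases, edgeR on the counts as deposited called 0 of 3 without or with the block, and 0 had an unadjusted p under 0.05 without it. SOD2 was called in 2 other fits given below. CAT was at -0.04 ± 0.29 and SOD2, the mitochondrial manganese dismutase, at 0.22 ± 0.29 (adjusted p of 0.931 and 0.615). The identifier of SOD2 was named only through GENCODE 29, where a second SOD2 entry overlaps it, so its reads may be shared. Of the methionine sulfoxide reductases, MSRA was at 0.20 ± 0.23 and MSRB1 at 0.36 ± 0.23 (adjusted p of 0.545 and 0.299).

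The change of the difference with day was tested by a group-by-day term over days 7, 9 and 11. No redox gene passed in edgeR, as for all features (0% called). At an unadjusted p under 0.05 there was 1 of 47, MGST1, beside 1.08% of all features. MGST1, a membrane-bound glutathione transferase named here after its values were seen, went from -1.20 and -0.93 on days 7 and 9 to 0.09 on day 11. The sign of the daily difference was the same on all days for 32 of the 47 genes, being positive for 18 and negative for 14. Of all 14071 features tested it was positive on all days for 5033 and negative for 4593, a share near that of the redox genes. Over the 47 genes the median daily difference was 0.01, 0.17 and 0.27 on days 7, 9 and 11, beside 0.00, -0.01 and 0.07 over all features. After correction for transcript GC content these medians were -0.03, 0.11 and 0.05, beside -0.006, 0.04 and -0.002 over all features. Setting day 11 against days 7 and 9 together also called 0 of the redox genes, while it called 0.0355% of all features.

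The differences of these genes moved with the GC content of their transcripts. Transcripts of low GC content tended to have lower counts in the shNXN libraries, and those of high GC content higher counts. Of 17 redox genes under 45% GC, 14 had a negative log2 fold change (median -0.45), and of 14 at 55% GC or more, 14 had a positive one (median 0.38). The medians of all tested features in the same classes were -0.78 and 0.35. Across the 47 genes Spearman's rho between GC content and log2 fold change was 0.75, a description over genes that share the 6 libraries. Over all tested features with a known GC content (n = 12740) it was 0.79. The trend differed by library: log2 counts changed per 10 points of GC by -0.48 to -0.18 in the shControl libraries and by 0.03 to 0.51 in the shNXN libraries, relative to the mean of all 6.

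When each library's GC trend was removed, none of the 47 redox genes passed in edgeR without the block, where 0.0355% of all features were called. In that fit 9 of the 47 had an unadjusted p under 0.05, beside 17.2% of all features. NXN stayed lower (-2.20, adjusted p = 0.00968). SLC7A11, the gene of lowest GC content (35.4%), BACH1 and SQSTM1 were not called, at the values given above. NFE2L2, at 45.6% GC, kept a corrected log2 fold change of -1.37 (adjusted p = 0.0894), and -1.35 with the block as well (adjusted p = 0.0648). It was the lowest corrected value among the 47. The correction also removes any difference between the groups that itself follows GC content, so the part of GC content and of the knockdown in these values cannot be told apart.

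**Figure D4:**
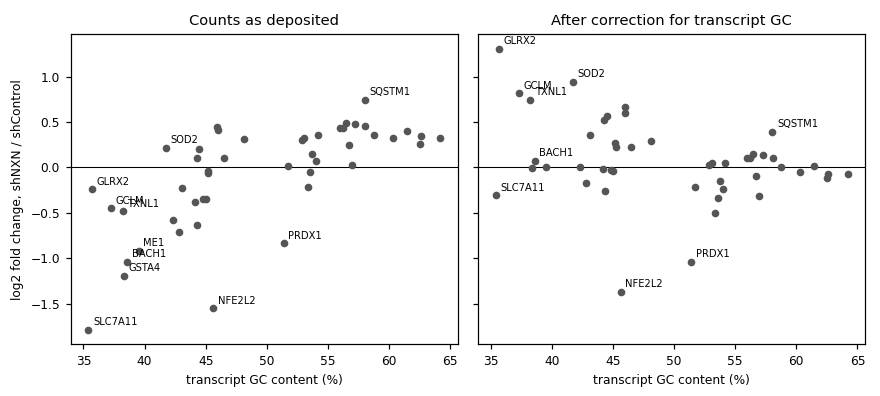
Log2 fold change (shNXN over shControl) of the 47 redox genes against the GC content of the longest transcript in percent, from the counts as deposited (left) and after removing each library's GC trend (right). Each point is 1 gene. The rise from left to right, with a Spearman's rho of 0.75, is no longer seen after the correction (rho -0.28), and the lowest values are then those of NFE2L2 (-1.37) and PRDX1 (-1.04).

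With the block and the GC correction together, 1 redox gene passed, SOD2, which was higher in shNXN cells (0.98, adjusted p = 0.0379), 2.13% of the 47 beside 1.07% of all features. SOD2 was at 898, 454 and 565 CPM with shControl and at 867, 530 and 832 CPM with shNXN, so the uncorrected levels of the groups overlapped. On day 7 the uncorrected difference was -0.05, and on days 9 and 11 it was 0.22 and 0.56. The correction used the GC content of the longest transcript, which for SOD2 has 14266 bases (41.7% GC). The deposited FPKM instead divide the counts of SOD2 by 1568 bases with shControl and 1163 with shNXN. Whether the GC content of the longest transcript stands for the transcripts counted was not tested.

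Counts and FPKM disagreed for several genes for which the length behind the FPKM differed between groups. The length by which the deposited FPKM divides a gene's counts can be read from the ratio of the 2 tables, and it differed over 1.3-fold between group means for 7 genes (TXNRD1, TXNL1, GLRX, GCLC, GCLM, BACH1 and SOD2, named after their values were seen). For BACH1 it was 4377 ± 191 bases with shControl and 2195 ± 432 with shNXN (SD, n = 3). Its FPKM, 17.0 ± 2.0 with shControl and 16.6 ± 3.3 with shNXN, did not show the fall seen in the counts, and the log2(FPKM + 1) difference was -0.04 (adjusted p = 0.908, limma). For GCLC the length went from 2153 ± 239 to 1124 ± 364 bases, and the log2(FPKM + 1) difference was 0.34 (adjusted p = 0.294, limma) beside -0.64 in counts. For GCLM it went the other way, from 2562 ± 1096 to 4573 ± 1.72 bases, with an FPKM difference of -1.19 (adjusted p = 0.0628, limma).

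SLC7A11 and SQSTM1 kept their lengths (9378 and 9359 bases, and 1778 and 1756 bases, with shControl and shNXN). On the log2(FPKM + 1) scale SLC7A11 was at -1.23 (adjusted p = 0.0531) and SQSTM1 at 0.76 (adjusted p = 0.0603). Limma thus called 0 of the 47 genes without the block, where 2.04% of all features were called. In that fit 18 of the 47 had an unadjusted p under 0.05, beside 29.5% of all features. With the block limma called 4 (SQSTM1 and SOD2 higher, TXNL1 and SLC7A11 lower), 8.51% beside 6.5% of all features (1.51% higher, 5% lower). The median of all features on this scale was 0.13, so these values are read against that shift.

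**Figure D5:**
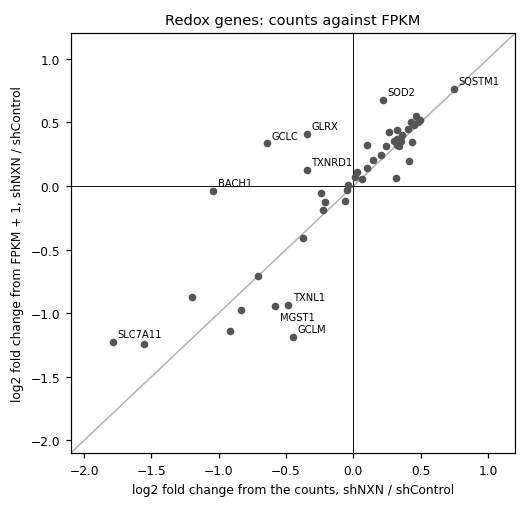
Log2 fold change from the counts (horizontal) and from limma on log2(FPKM + 1) (vertical) for the 47 redox genes, shNXN over shControl. Each point is 1 gene and the grey line marks equal values. BACH1 lies near 0 in FPKM (-0.04) and at -1.04 in counts, and GCLC, GLRX and TXNRD1 lie on opposite sides of 0.

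By FPKM, which allows genes to be set side by side, the means of the redox genes ran from 0.74 to 1492 FPKM. After GPX4, by the mean over the 6 libraries, came SQSTM1 (662), PRDX1 (527), SOD2 (518) and PRDX2 (378). SQSTM1 ran from 451 to 984 FPKM, PRDX1 from 242 to 975 and SOD2 from 323 to 781, so the order of these neighbours was not separated by the spread over libraries. At the other end were SLC7A11 (2.99), NXNL2 (1.23), GSTP1 (0.81) and NQO1 (0.74). TXN, at 137 FPKM, was above TXN2, at 76.5, with ranges of 81.4 to 183 and of 63.2 to 96.9 that overlap.

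Beyond the 49 genes, 144 further genes of the same pathways were listed from general knowledge, of which 143 had a row and 125 were tested. None rose and 6 fell without the block, 4.8% beside 3.39% of all features. With the day block 16 rose and 20 fell (28.8% beside 23.3%). The 6 that fell were TMX3 (-1.97 ± 0.39), a disulfide isomerase of the endoplasmic reticulum, LANCL1 (-1.10 ± 0.16), ABCC4 (-1.21 ± 0.22), an efflux transporter, SELENOF (-1.28 ± 0.19) and SELENOT (-1.32 ± 0.23), selenoproteins of the endoplasmic reticulum, and SEPSECS (-2.08 ± 0.35), the last enzyme of selenocysteine synthesis. Their adjusted p ran from 0.0426 to 0.0492 and their transcripts had 35.3% to 43.2% GC. After the GC correction none of the 125 was called by edgeR (19 had an unadjusted p under 0.05, beside 17.2% of all features). With the block as well, 2 were higher, NNT (0.73, adjusted p = 0.0492) and NADK2 (0.83, adjusted p = 0.0412), both mitochondrial enzymes of NADP metabolism.

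Among the lists of further genes, the counts without the block were 0 higher and 1 lower for 26 thioredoxin-fold proteins and disulfide isomerases, 0 and 1 for 19 glutathione enzymes, and 0 and 1 for 26 NRF2 targets. They were 0 and 3 for 20 superoxide, methionine sulfoxide and selenoprotein genes. The 14 NRF2 regulators, 13 NADPH genes and 7 genes of cysteine supply gave 0 calls with edgeR without the block. In that fit 5, 4 and 0 of them had an unadjusted p under 0.05, beside 32.9% of all features. With the block 4, 4 and 3 of them were called (28.6%, 30.8% and 42.9%), beside 23.3% of all features. For the lists named before them this share ran from 11.5% (NRF2 targets) to 46.2% (thioredoxin-fold proteins and disulfide isomerases). For the further NRF2 targets the median log2 fold change was 0.14, and after the GC correction 0.02, beside 0.03 and -0.00092 over all features.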

How the data were processed

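RNA was sequenced from 6 Hep-3B libraries, grouped by the labels. The authors deposited estimated counts per gene, not whole and not normalized, and a second table of FPKM values per gene. The aligner, counter and annotation are not given in the sources used here. The submitters' processing notes list GRCm38 and mm10, which are mouse builds, while the identifiers are human Ensembl ones, so coordinates come only from GENCODE 29 (GRCh38). Estimated counts share out reads that match several genes, so paralogs are uncertain, and FPKM depend on the transcript mixture. There were 0 columns without a sample.

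After rounding, counts entered edgeR 4.0.16 under R 4.3.3 (TMM, filterByExpr, quasi-likelihood test, Benjamini-Hochberg adjustment over 14071 features, SE as the log2 fold change over the square root of F). Symbols came from a name table (19433 of 20314 identifiers) and GENCODE 29 (64 more). GC content was that of the longest GENCODE 29 transcript, known for 90.5% of features, and was removed by a natural spline (5 degrees of freedom) per library, entered as an offset. Alternatives were DESeq2 1.42.0, other scalings and filters, limma 3.58.1 on log2(FPKM + 1) and log2(FPKM + 0.1), and libraries left out. Tests were tried on simulated data.

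Replicate numbers follow the day, so they pair the samples. Deviations from group means correlated within days at 0.26, 0.28 and 0.41 (days 7, 9 and 11) and between days at -0.34 to 0.13. No 2 libraries of a group agreed within sampling noise (chi-square per gene 20.1 to 77.8).

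The genes and lists were chosen with earlier results of these data known. Library values were given for NXN, for genes called without or with the block (at most 12 of the latter, by p), for 5 thioredoxin-family genes and 6 NRF2 targets, and for genes called in the day test. The highest and lowest log2 fold changes of each role were named.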

Additional observations from a re-analysis of the deposited data

Results flagged for a closer look

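For 11 of the genes named with values, the difference between shNXN and shControl pointed one way on one day and the other way on another, with 1 library per group and day. The switch of sign was not tested by itself, and the group-by-day term passed for none of them. Such a switch was seen for 15 of the 47 redox genes tested and for 4445 of all 14071 features tested. The span between the highest and the lowest daily log2 difference was 2.67 for NQO1, 2.16 for PRDX1 and 2.11 for NXNL2. NQO1 and NXNL2 had 2 to 22 counts per library. For PRDX1, at 179 to 656 CPM, the day 9 libraries stood farthest apart. The spans of the others were 1.29 for MGST1, 0.67 for MSRA, 0.63 for CAT, 0.61 for SOD2, 0.52 for GPX3, 0.51 for TXNDC17, 0.47 for GSTO1 and 0.34 for SRXN1.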

How the results depend on the processing

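All features called (477) became 3311 by DESeq2, 826 under RLE factors, 929 when scaled by library size alone, 818 without the filter, 3272 with the replicate block, 5 with the GC correction, 151 with both, 287 and 66 with limma on log2(FPKM + 1) and log2(FPKM + 0.1), and 915 with limma on FPKM and the block. The redox genes called (3) became 9 with DESeq2, 11 with the replicate block, 0 with the GC correction, 1 with both and 0 with limma on either FPKM scale (18 unadjusted on each, beside 29.5% and 29.4% of all features). The further pathway genes (6) became 36, 0 and 2 with the block, the GC correction and both. Leaving out 1 library, or both libraries of a day with the block, gave 0 to 5250 features and 0 to 18 redox genes, with 6 to 22 redox genes at an unadjusted p under 0.05 (18.6% to 49.2% of all features). Without the day 11 shNXN library edgeR called 14 redox genes (29.8% beside 25.8% of all features), and without any 1 of the other libraries 0 or 1. NXN ran from -1.67 to -1.95 over these fits, and it lost its call without the day 7 or day 11 shControl library, the day 7 or day 9 shNXN library, or both libraries of day 7.

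SLC7A11, SQSTM1 and NFE2L2 kept their direction in 20 of 20 alternatives, and passed the threshold in 11, 9 and 9. With the GC correction, alone and with the block, the sign turned for BACH1 (0.074 and 0.064), TXNL1 (0.75 and 0.70), NXNL2 (-0.23 and -0.18) and GCLM (0.82 and 0.81), for ME1 without the block (0.010) and for GSTA4 with it (0.065). On the FPKM scales it turned for GCLC (0.34, 0.34 and, with the block, 0.34) and TXNRD1 (0.13, 0.13 and 0.13). With libraries left out it turned for NXNL2 (-0.39 to 0.66), SRXN1 (-0.13 to 0.070), TXNDC17 (-0.024 to 0.21) and NQO1 (-0.073 to 1.06). Among the other members, the GC correction, alone and with the block, turned the sign of KEAP1 (-0.047 and -0.048) and GLRX2 (1.31 and 1.28). It also turned in both fits for TXNRD2, PRDX2, PRDX3, PRDX4, PRDX6, GPX1, GPX3, GPX4, CAT and SOD1. The cause was not tested. The replicate block changed no call of a gene named with library values other than those given in the report. With 3 libraries per group and 2 to 22 counts, depth limits NQO1, NXNL2 and GSTP1.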
